A study of Mus musculus with 10 samples.

Results

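The cytosolic ribosomal protein genes are the genes for the proteins of the 60S and 40S subunits of the cytosolic ribosome, taken as every listed gene whose symbol is Rpl, Rps or Rplp followed by a number and at most a closing a, l or x. By this rule 79 of the 24837 listed genes were members: 46 of the 60S subunit (Rpl), 30 of the 40S subunit (Rps) and 3 of the P stalk (Rplp0, Rplp1 and Rplp2). The rule used names only and no measured value. Among the genes it leaves out are Rpsa, Fau, Rps3a1 and the ribosome-associated scaffold Rack1, whose symbols have another form, and these are given beside the members where they bear on them.

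The 10 samples are of hippocampal nuclei from unstimulated mice, wild-type, of the strain C57B/6J and 4 to 7 months of age, and form 1 group with no treated or mutant arm. In 4 of the sample titles the sample is called a control of RNASET2, and the other 6 titles carry no such word. Nuclei came from frozen tissue, were stained with the DNA dye 7AAD and sorted, and 3′ droplet libraries were made from about 5000 nuclei per sample, per the labels' protocols. The barcodes carry 7 suffixes, called barcode sets 1 to 7 here, but the labels do not say which samples they stand for. The whole matrix is for that reason handled as 1 sample, without replicate error or p-values.

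A ribosome is assembled in the nucleolus from ribosomal RNA and about equal numbers of each ribosomal protein, which are made in the cytoplasm and imported. The genes are short, are transcribed in every cell type, and are usually among the most abundant messenger RNAs of a whole cell. Their messenger RNAs open with a terminal oligopyrimidine tract, through which signalling by mTOR sets their translation, so protein output is controlled largely after transcription. In isolated nuclei the cytoplasmic pool is mostly absent, and what is counted is nuclear transcript plus whatever cytoplasmic or free RNA stays with the nucleus.

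The sequences around 7 transcription starts are shown first, because these genes mark the extremes described later: Rpl28 and Rps13 followed the other members most and least closely among those with at least 1000 UMIs, Rpl18 had one of the lowest ratios in neurons, Rpl6 and Rpl41 had the most UMIs, Rpl31 differed least between barcode sets among the members tested in granule neurons, and Rpl38 holds matches to 2 of the motifs searched. Each window runs from 60 bases before the RefSeq start through its first 25 bases, 5′ to 3′ on the gene's own strand, in GRCm38.p6. Rpl28 is at chr7:4792905-4792989 (plus strand), Rpl18 at chr7:45718011-45718095 (plus), Rpl38 at chr11:114668520-114668604 (plus) and Rpl6 at chr5:121204441-121204525 (plus). Rpl41 is at chr10:128549144-128549228 (minus), Rpl31 at chr1:39367791-39367875 (plus) and Rps13 at chr7:116334166-116334250 (minus). Capitals mark matches to CTCTTT or CTTTCC, short pyrimidine runs, or to CCGGAAG, an ETS-type motif, on either strand. CTCTTT and CTTTCC overlap in Rpl28 and Rpl18.
Rpl28: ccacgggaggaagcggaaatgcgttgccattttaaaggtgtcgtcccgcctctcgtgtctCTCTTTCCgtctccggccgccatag
Rpl18: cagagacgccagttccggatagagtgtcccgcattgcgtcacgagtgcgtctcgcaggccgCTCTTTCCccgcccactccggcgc
Rpl38: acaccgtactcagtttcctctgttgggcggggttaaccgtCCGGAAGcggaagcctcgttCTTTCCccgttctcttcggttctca
Rpl6: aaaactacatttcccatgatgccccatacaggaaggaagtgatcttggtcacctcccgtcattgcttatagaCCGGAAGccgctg
Rpl41: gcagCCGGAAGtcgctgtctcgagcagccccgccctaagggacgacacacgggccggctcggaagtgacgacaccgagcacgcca
Rpl31: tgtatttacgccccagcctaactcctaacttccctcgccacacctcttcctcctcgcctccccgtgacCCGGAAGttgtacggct
Rps13: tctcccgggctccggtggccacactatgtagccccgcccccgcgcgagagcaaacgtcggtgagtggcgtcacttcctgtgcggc

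Of the 79 members, 59 had an entry in the RefSeq promoter table, which holds 250 bases before and 50 after each start. Over these 300 bases and both strands, CCGGAAG was present for 24 of 59 members (40.7%) and for 9.93% of all 27025 genes in the table. CTTTCC was present for 31 members (52.5%) and for 29.3% of all genes, and CTCTTT for 27 members (45.8%) and for 25.6%. The TATA-box core, written TATAAA, was present for 6 members (10.2%) and for 15.7% of all genes. A match is a description of the letters only, and a gene with several starts counts if any window holds the motif.

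The members lie on 19 chromosomes and are short. Their genomic span has a median of 3289 bases, from 828 bases in Rpl36 to 31449 bases in Rps14, and 62 of the 79 span at most 5 kb. In 28 members the introns host 53 small nucleolar RNA genes in all. For example, Rps3 (chromosome 7, 99477896 to 99483738, minus strand, GENCODE M21 on GRCm38) hosts Snord15a and Snord15b. In 32 members at least 50% of the 60-base words at the transcript's 3′ end also occur in another listed gene or pseudogene, so reads may have been split or dropped for those genes.

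Nuclei with at least 500 UMIs numbered 15560, of which 318 (2.04%) were called doublets, leaving 15242 nuclei with 97763076 UMIs. The sets held 666 to 3032 nuclei, and their median depth ran from 1088 UMIs per nucleus in set 7 to 8178 in set 3. Sets 2 to 4 had medians of 8052, 8178 and 7698 UMIs, set 1 of 5492, and sets 5 and 6 of 2823 and 2413. Only 21 barcode sequences occurred in more than 1 set. The nuclei formed 38 clusters without use of any member, and each class name below stands for clusters that resemble that cell type by its markers. All 12 oligodendrocyte markers, all 13 microglia markers, 8 of 11 dentate granule markers and 7 of 10 CA1 markers had their highest level in the class of that name, whereas the summed CA2/CA3 markers were higher in oligodendrocytes, which share St18. In 8 clusters (1956 nuclei, 12.8%) no class name held.

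Ribosomal protein transcripts were a small but nearly ubiquitous part of these nuclei. The members together had 119368 UMIs, 0.122% of all UMIs, and 96.2% of nuclei had at least 1 of them. No class of nuclei lacks these genes, so a background share from free RNA could not be read from them. The 10 members with the most UMIs held 38021 UMIs, 31.9% of the sum. Among these were Rpl6 (7026 UMIs), Rpl41 (6203), the stalk gene Rplp1 (3299), Rps15 (3229), the ubiquitin fusion gene Rps27a (2995), Rpl5 (2841), Rps24 (2605), Rpl19 (2538) and Rpl21 (2520).

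The members differed widely among themselves. 53 members had at least 1000 UMIs and 5 had under 100. Levels are given as CPM, the UMIs of a gene per 1000000 UMIs of the same nuclei. To set genes side by side, levels are also given per kilobase of exon, although UMIs counted at the 3′ end need not grow with exonic length. Among the highest levels on that scale were those of Rplp1 (67.6 CPM per kb), Rpl41 (54.3), Rps15 (52.4), Rpl36 (38.6) and Rps29 (36.6). Rpl6, first by UMIs, stood at 22.9 CPM per kb.

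Among the members with the fewest UMIs, Rpl3l (49 UMIs), Rpl39l (4) and Rpl10l (2) are paralogs known for expression in muscle or testis. The other 2, Rps10 (11 UMIs) and Rpl13 (0), are ordinary subunit genes. All of the exonic sequence of Rpl13 is covered on the same strand by the listed gene Gm20388, which had 153142 UMIs, and 81.5% of that of Rps10 is covered by RPS10-NUDT3. Their counts may therefore not measure the genes. No count of RPS10-NUDT3 is given here, and the part of the overlap in the low counts was not tested. Rps27 had 171 UMIs (1.68 CPM per kb) while the retrogene Rps27rt, outside the rule, had 3227 (88.3 CPM per kb), and 72.7% of the 3′ words of Rps27 occur in other genes, so the counts of this pair are uncertain. Of the other genes for ribosomal components outside the rule, Fau, a fusion of a ubiquitin-like peptide and a 40S protein, had 2455 UMIs, Rpsa 2284, Rps3a1 1477 and Rack1 1113.

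The summed share of UMIs from the members differed with the nucleus class and with the barcode set. In CA1 neurons it was 0.218, 0.0594, 0.0615, 0.0577, 0.116 and 0.124% in sets 1 to 6, and in CA2/CA3 neurons 0.169, 0.0584, 0.0635, 0.0526, 0.120 and 0.120%. Dentate granule neurons had 0.341, 0.0796, 0.0867, 0.0828, 0.204 and 0.166%, above CA1 in each of the 6 sets. Inhibitory neurons had 0.170, 0.0671, 0.0635, 0.0591, 0.136 and 0.141%.

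Oligodendrocytes and microglia had larger shares than these neuronal classes in the same set, whereas precursors and astrocytes lay below granule neurons in set 1. Oligodendrocytes had 0.557, 0.111, 0.111, 0.105 and 0.244% in sets 1 to 5 and 0.204% in set 7. Microglia had 0.718, 0.161, 0.120 and 0.153% in sets 1 to 4, oligodendrocyte precursors 0.285, 0.211 and 0.206% in sets 1, 5 and 7, and astrocytes 0.334% in set 1, the only set with 50 of them. In each class measured there, set 1 had the highest share and sets 2 to 4, where measured, the lowest. The order granule above CA1 and oligodendrocyte above granule held in every set with 50 nuclei on both sides, whereas CA1, CA2/CA3, subicular or cortical and inhibitory neurons stood close together within a set apart from set 1.

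**Figure D1:**
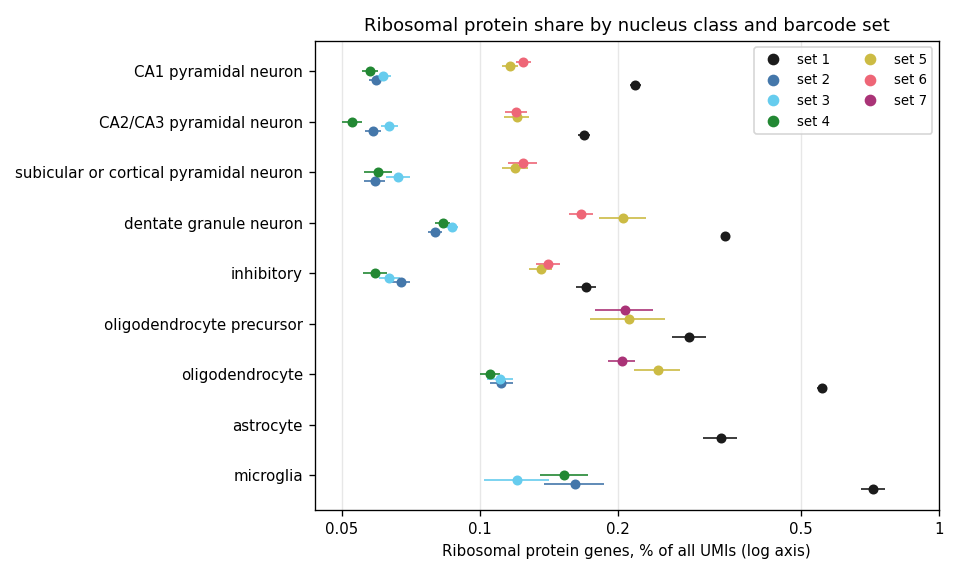
Share of all UMIs that came from the 79 ribosomal protein genes (percent, log axis) in each nucleus class, one point per barcode set with at least 50 nuclei of the class; bars are exact binomial 95% intervals, which cover counting error only. Points of set 1 lie farthest right in every class that has one, those of sets 2 to 4 farthest left, and granule neurons and glia lie to the right of the other neurons of the same set.

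The broadest comparison was of neuronal with non-neuronal nuclei, which asks whether the members make up the same part of the transcripts in both. The neuronal side holds 8486 excitatory and 1319 inhibitory nuclei. The 109 Cajal-Retzius nuclei, described at the end, and the unnamed clusters are on neither side. The non-neuronal side holds 2564 oligodendrocytes, 383 microglia, 295 oligodendrocyte precursors and 130 astrocytes, and so stands mostly for oligodendrocytes. As pooled, the part differed: the members held 0.101% of the UMIs of 9805 neuronal nuclei and 0.213% of those of 3372 non-neuronal nuclei. The ratio was 0.472 (95% interval 0.464 to 0.481, counting error only). It does not hold for each class, since precursors and astrocytes lay below granule neurons in set 1. Within sets 1 to 5 the ratio was 0.497, 0.576, 0.619, 0.587 and 0.503, below 1 in 5 of 5 sets. The measure is a share: neuronal nuclei had more UMIs (mean 7649 against 1915), and per nucleus they held more ribosomal protein UMIs, 7.71 against 4.09, a ratio of 1.89. Unscaled counts thus turn the direction. The 12 oligodendrocyte markers summed to 210 to 265 CPM in neuronal nuclei of these 5 sets and to 14498 to 20012 in non-neuronal nuclei.

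Of the 79 members, 73 had at least 100 UMIs over both sides. 39 of these were at least 2-fold lower in neuronal nuclei and 0 were at least 2-fold higher, where 22.3% of all 13473 genes tested were lower and 19.6% higher by that rule. The median log2 ratio of the 73 was -1.10, that of all genes -0.23 and that of short protein-coding genes (at most 10 kb) -0.35. 50 of the 73 were below 1 in all 5 sets, none was above 1 in all 5, and 23 were mixed. The same counts over all genes are not given here. The P stalk had 2 of 3 members called lower, the 40S 17 of 29 and the 60S 20 of 41. Without set 1 the count of members called lower was 24, and with the unnamed clusters placed in the class of most raised markers it was 10. The share of all genes called was not counted under these settings. Whether the members still exceeded it there is therefore not known.

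The P stalk is the flexible arm of the 60S subunit that recruits elongation factors, and Rplp0 is its base. Rplp0 stood at 6.80 CPM in neuronal and 27.1 in non-neuronal nuclei, a ratio of 0.251 (95% interval 0.211 to 0.300), the lowest of all members tested. Within sets 1 to 5 its ratio was 0.321, 0.266, 0.317, 0.338 and 0.245. Rplp1 stood at 25.7 and 75.9, a ratio of 0.339 (95% interval 0.307 to 0.375), with 0.462, 0.344, 0.508, 0.301 and 0.474 within sets. Rplp2, the partner with which Rplp1 forms dimers, had a ratio of 0.645 (95% interval 0.501 to 0.842) and so lay nearer to 1.

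Of the 40S genes, Rps3, whose protein lies at the messenger RNA entry channel, was lowest at 0.269 (95% interval 0.234 to 0.309), from 11.4 and 42.6 CPM in neuronal and non-neuronal nuclei. Rps29 had a ratio of 0.314 and Rps16 of 0.346, and both were below 1 in 5 of 5 sets. Rps27a, whose product is cut into ubiquitin and a 40S protein, had 0.383 (95% interval 0.343 to 0.428). Rps4x, the X-linked 40S gene, had 0.382 (95% interval 0.322 to 0.455). At the other end, Rps18 had 0.718, Rps26 0.580 and Rps15 0.571, also below 1 in each set. Rps13 did not separate the sides: its ratio was 0.962 (95% interval 0.779 to 1.20), with 0.923, 1.19, 1.51, 0.718 and 0.745 within sets.

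Of the 60S genes, Rpl18 was lowest at 0.272 (95% interval 0.241 to 0.307), from 14.8 and 54.5 CPM, with 0.291, 0.378, 0.515, 0.423 and 0.255 within sets. Rpl7 (0.291), Rpl28 (0.352) and Rpl23 (0.356) were also low, each below 1 in 5 of 5 sets. Rpl6, the most counted member, had 0.765 (95% interval 0.700 to 0.836), and Rpl5, whose protein binds the 5S ribosomal RNA together with that of Rpl11, had 0.726 (95% interval 0.634 to 0.834). Rpl11 itself had 0.361 (95% interval 0.321 to 0.407), so the 2 partners lay apart. Rpl23a (0.797), Rpl37a (0.697), Rpl17 (0.689) and Rpl10a (0.648) were also among the higher ratios, each with one direction in every set. The interval of Rpl23a, 0.549 to 1.20 on 31 non-neuronal UMIs, includes 1. Rpl12, with 1.04 (95% interval 0.774 to 1.42), was the only member tested that lay above 1.

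**Figure D2:**
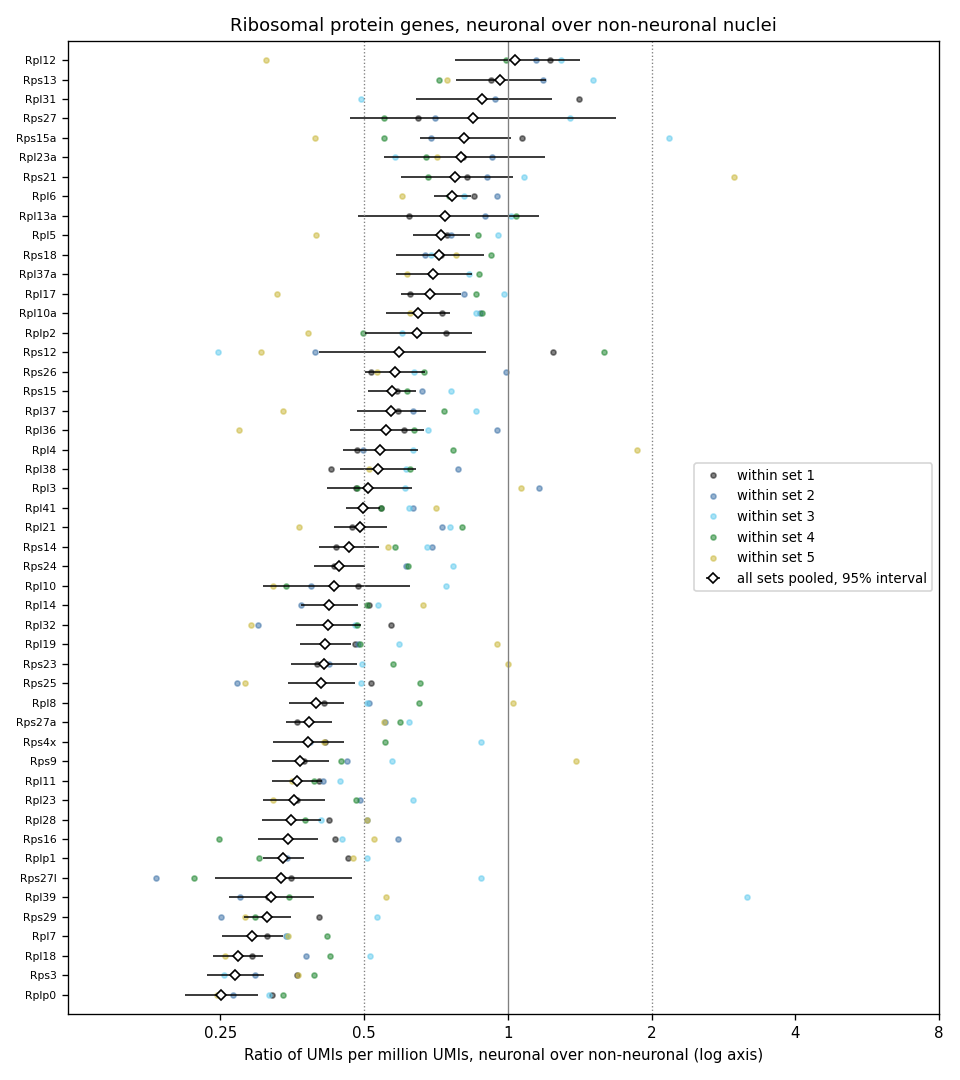
Ratio of CPM in neuronal over non-neuronal nuclei (log axis) for the tested members that the text names, ordered by the pooled ratio; diamonds with bars are the pooled ratio with its 95% counting interval, small dots the ratio within a barcode set, and ratios with no UMI on one side or beyond the axis are not drawn. Rplp0 is lowest at 0.251 and Rpl12 highest at 1.04, and nearly all pooled ratios lie left of 1.

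Lists of genes around the ribosome were read by the same rule, under which 22.3% of all genes were lower and 19.6% higher. Of the other ribosomal protein symbols outside the rule, 5 of 7 were lower, among them Rpsa (0.322), Fau (0.393) and Rack1 (0.442), beside a median log2 ratio of -1.18. Of 13 elongation factors and related genes 3 were lower, about the share of all genes, with Tpt1, another messenger RNA with a terminal oligopyrimidine tract, lowest at 0.287, and Eef1a2, the neuronal form of the factor that delivers transfer RNA, was higher at 2.10. Of 35 initiation factors 3 were lower (Eif4h lowest at 0.419), and of 45 genes of ribosome biogenesis and RNA polymerase I 5 were lower (Rrs1 lowest at 0.148) and the median was -0.13. Of 21 genes on the list of mTOR signalling, 3 were lower and 2 higher, with Rps6ka1 at 0.133 and Rps6ka2 at 2.96. The list also holds these Rps6ka kinases, which act outside mTOR signalling itself.

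By median log2 ratio, nuclear genes for other abundant short transcripts lay between all genes and the members. Of 76 mitochondrial ribosomal protein genes 5 were lower (median -0.44), a smaller share than the 22.3% of all genes. Of 76 nuclear genes of oxidative phosphorylation 21 were lower and 2 higher (median -0.68), so the share lower was near that of all genes. Of 10 mitochondrially encoded genes 4 were lower. Snhg11, the 1 listed gene of the nuclear long noncoding RNA list, was 17.3-fold higher in neuronal nuclei.

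Excitatory neurons were compared with inhibitory neurons, 2 neuronal classes of close depth (median 5731 and 4986 UMIs). Over all sets the members held 0.103% of UMIs in excitatory and 0.0866% in inhibitory nuclei, a ratio of 1.19 (95% interval 1.16 to 1.22). This difference did not hold within sets. The ratio in sets 1 to 6 was 1.54, 0.943, 1.09, 1.08, 0.889 and 0.922, above 1 in 3 sets and below in 3, and without set 1 it was 0.976.

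None of the 73 members tested was 2-fold higher or lower, where 9.62% of 13016 genes were higher and 8% lower. The median log2 ratio was 0.25, against -0.06 for all genes. Only Rps9 (1.43), a 40S protein of the decoding region, Rpl37 (1.49) and Rpl13a (1.60) were above 1 in all 6 sets, and 70 members were mixed. The interval of Rpl13a, 0.977 to 2.81 on 17 inhibitory UMIs, includes 1. The same counts over all genes are not given here. Rpl11 had the lowest ratio of all, 0.641 (95% interval 0.560 to 0.736). It stood at 41.6, 24.9, 21.3, 23.7, 52.1 and 33.2 CPM in inhibitory nuclei of sets 1 to 6, and its ratio was 1.07, 0.538, 0.547, 0.465, 0.418 and 0.647, below 1 in 5 of 6 sets. Rpl14 was highest at 1.71 (95% interval 1.38 to 2.14), with 3.16, 1.61, 1.03, 0.866, 2.77 and 0.836 within sets. No gene of the elongation, initiation, biogenesis or oxidative phosphorylation lists was 2-fold apart either, while 2 mitochondrial ribosomal protein genes and 2 genes of the mTOR list, Rps6ka1 the lower at 0.391, were.

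Dentate granule and CA1 neurons, the main principal neurons of the trisynaptic circuit's ends, gave the clearest difference between neurons. The members held 0.158% of UMIs in 2415 granule nuclei and 0.0902% in 2755 CA1 nuclei, a ratio of 1.75 (95% interval 1.72 to 1.78). Within sets 1 to 6 the ratio was 1.57, 1.34, 1.41, 1.44, 1.76 and 1.34, above 1 in 6 of 6 sets. Short protein-coding genes as a whole had ratios of 1.11, 1.04, 1.08, 1.06, 1.11 and 1.05 in the same sets, and nuclear genes of oxidative phosphorylation 1.23, 1.31, 1.22, 1.29, 1.18 and 1.19. Per nucleus, without scaling to depth, the ratio was 0.980, 0.868, 0.831, 0.916, 1.37 and 1.01, on both sides of 1, and 1.60 over all sets. Set 5 had only 55 granule nuclei. The 12 oligodendrocyte markers summed to 319 to 462 CPM in granule neurons of the 6 sets and to 98.1 to 174 in CA1 neurons, and their part in the result was not tested.

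Over all sets, 20 of 71 members tested were at least 2-fold higher in granule neurons and 0 lower, where 7.27% of 11427 genes were higher and 8.2% lower. That count rests on set 1, which held 671 of the granule nuclei and 217 of the CA1 nuclei and had the highest shares. Without set 1 the pooled summed ratio was 1.21, below that within each single set, and 1 member was called. The share of all genes called was not counted without set 1. Taken within sets, most members kept the direction and the size was smaller. The median over members of the median within-set ratio was 1.44, and 70 of 71 lay above 1 by that measure. Of the 71, 29 were above 1 in all 6 sets and 0 were below in all 6. The same counts over all genes are not given here, so these describe the members only. Medians of 2 or more within sets were found for 3 members.

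Rps4x had the largest within-set difference. It stood at 44.9, 6.78, 8.91, 9.04, 14.4 and 19.1 CPM in granule neurons of sets 1 to 6 and at 20.8, 2.52, 5.39, 2.85, 10.3 and 8.88 in CA1 neurons, a ratio of 2.15, 2.69, 1.65, 3.17, 1.40 and 2.16 by set and 2.76 (95% interval 2.25 to 3.40) over all sets. Granule neurons were higher in 6 of 6 sets, although the levels of different sets overlap and set 5 rests on 2 UMIs in granule neurons. Rpl3, which lines the peptidyl transferase centre, had 2.45 (95% interval 1.97 to 3.06) and 1.86, 3.27, 1.65, 2.21, 5.51 and 1.66 by set, also above 1 in 6 of 6. Rpl32 (2.19), Rps23 (2.10), Rpl8 (2.09), Rps25 (2.04), Rps16 (2.02) and Rpl28 (2.01) had some of the highest pooled ratios after these among members with one direction in every set. For Rpl28 the ratio pooled without set 1 was 0.936, although it was 1.30, 1.28, 1.84, 1.88 and 1.15 within sets 2 to 6. Sets 5 and 6 held 627 and 872 CA1 nuclei but only 55 and 350 granule nuclei. Pooling thus weights the sets differently in the 2 classes.

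The highest pooled ratio was that of Rplp1, 2.89 (95% interval 2.57 to 3.26), but by set it was 2.24, 1.62, 1.82, 1.60, 0.699 and 1.23. Its level in granule neurons was 159.5, 16.3, 21.6, 12.2, 14.4 and 29.4 CPM in sets 1 to 6, so set 1 stood far above the others. Rps3, with 2.66 pooled, had 1.999, 1.35, 1.13, 1.75, 1.13 and 1.33 by set, on 1 and 4 granule UMIs in sets 5 and 6. Rplp0 (2.31) was above 1 in 4 of 6 sets. Rpl6 was steadier at 1.46 (95% interval 1.35 to 1.57), with 1.47, 1.40, 1.26, 1.21, 1.89 and 1.29. Rps27l, a paralog of Rps27 known as a p53 target, was the only one of the 71 members tested that lay below 1 when pooled, at 0.964 (95% interval 0.647 to 1.43), and Rps24 had the lowest median within sets, 0.995.

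**Figure D3:**
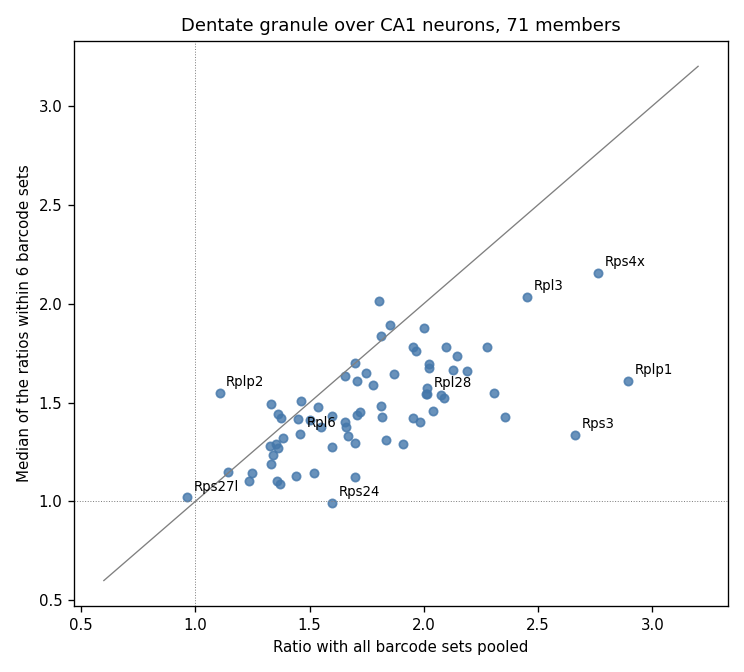
Each point is 1 of the 71 ribosomal protein genes tested; the horizontal axis is its ratio of CPM in dentate granule over CA1 neurons with all barcode sets pooled, the vertical axis the median of its ratios within 6 sets, and the grey line marks equality. Most points lie below the line and above 1 on both axes: Rplp1 is at 2.89 pooled, while Rps4x at 2.76 pooled also keeps the highest within-set median, 2.15.

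By role, 2 of 3 stalk genes, 8 of 28 tested 40S genes and 10 of 40 tested 60S genes were called higher in granule neurons, where 7.27% of all genes were higher and 8.2% lower. Of the other lists, read against the same shares, Rpsa (2.50) was the 1 of 7 ribosomal protein symbols outside the rule that was called, 0 of 13 elongation and 0 of 35 initiation factors were, and the biogenesis list gave 1 of 44, the methyltransferase Emg1 at 2.10. The mTOR list gave 2 of 21, close to the share of all genes, with Rragd, a GTPase of amino acid sensing, highest at 4.73. Mitochondrial ribosomal proteins gave 0 of 75 and oxidative phosphorylation 2 of 76, with Ndufa4 highest at 2.17. Of 8 mitochondrially encoded genes 0 were called, and Snhg11 was lower at 0.141.

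Oligodendrocytes also exceeded granule neurons, which had the largest share of the neuronal classes measured within sets of at least 50 nuclei. In sets 1 to 5 the ratio of oligodendrocyte to granule share was 1.63, 1.40, 1.28, 1.27 and 1.19, while that of short genes was 1.71, 1.36, 1.33, 1.38 and 1.22. The members and the short genes were thus of similar size between these classes. Against CA1 neurons of the same 5 sets the member ratio was 2.56, 1.87, 1.80, 1.82 and 2.10, and the short-gene ratio 1.89, 1.41, 1.44, 1.46 and 1.35.

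Microglia, the resident macrophages of the brain, were compared with oligodendrocytes as the 2 glial classes with most sets. The members held 0.294% of UMIs in 383 microglial and 0.211% in 2564 oligodendrocyte nuclei, a ratio of 1.39 (95% interval 1.32 to 1.47). In sets 1 to 4 the ratio was 1.29, 1.44, 1.09 and 1.45, and in set 3 its interval, 0.908 to 1.29, includes 1. Short genes had ratios of 1.40, 1.31, 1.21 and 1.20. With each unnamed cluster placed in the class of most raised markers the ratio became 0.709, so the direction depends on how the mixed clusters are treated. The 12 oligodendrocyte markers summed to 359 to 1203 CPM in microglia of sets 1 to 4 and to 18887 to 30056 in oligodendrocytes, and their part in the result was not tested.

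Only 51 members had 100 UMIs here. 3 were at least 2-fold higher in microglia and 0 lower, where 19.1% of 7071 genes were higher and 20.4% lower. Rps29 had 2.37 (95% interval 1.81 to 3.07) and Rps9 2.22 (95% interval 1.58 to 3.06), both above 1 in 4 of 4 sets. Rpl10a, of the L1 stalk that releases the spent transfer RNA, had 2.78 (95% interval 1.86 to 4.07), with 2.53, 7.16, 1.39 and 1.55 by set. These rest on 22, 4, 2 and 3 UMIs in microglia of sets 1 to 4, so the single-set sizes are uncertain. Rpl18 (1.72), Rpl6 (1.54) and Rps3 (1.51) were above 1 in each of the 4 sets, and Rpl8 (0.845 (95% interval 0.525 to 1.30)) below 1 in each. Rpl32 was lowest at 0.506 (95% interval 0.238 to 0.955) on 10 and 162 UMIs.

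Of the other lists in this comparison, Rack1 (2.39) was one of 2 of 5 symbols outside the rule called higher. The elongation list gave 2 of 7, led by the kinase Eef2k at 11.4, the initiation list 3 of 27 with Eif4a2 highest at 2.41, and the mTOR list 4 higher and 2 lower of 17, with Rps6ka1 at 13.4 and Tsc1 at 0.432. The biogenesis list gave 2 higher and 2 lower of 25, mitochondrial ribosomal proteins and oxidative phosphorylation 1 each way of 34 and of 53. 0 of 3 mitochondrially encoded genes were called.

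The paralogs with restricted expression were nearly silent next to their partners. Rpl3l had 38 UMIs in neuronal and 1 in non-neuronal nuclei, a ratio of 3.27 whose counting interval, 0.553 to 132.6, includes 1. In granule neurons it had 5 UMIs against 250 of Rpl3, and in oligodendrocytes 0 against 88, where 3 UMIs would be 0.624 CPM. Rpl39l had 4 UMIs, of which 3 were in unnamed clusters, and Rpl10l had 2, whereas Rpl39 had 123 in CA1 neurons and Rpl10 had 52. Rps27l was measurable. It had 62 UMIs in CA1 neurons and 38 in oligodendrocytes, and its ratio of neuronal to non-neuronal nuclei was 0.336 (95% interval 0.243 to 0.471).

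Differences between barcode sets within a class were about as large as those between classes, or larger. In dentate granule neurons the members held 0.341% of UMIs in set 1 and 0.0831% in sets 2 to 4, a ratio of 4.11 (95% interval 4.00 to 4.22). In oligodendrocytes the shares were 0.557% and 0.108%, a ratio of 5.13, and in CA1 neurons of sets 5 and 6 against sets 2 to 4 they were 0.120% and 0.0596%, a ratio of 2.02. The sets cannot be tied to samples, so these are differences between parts of the data and not between conditions. Depth moved with them in part: median UMIs were 6119 and 7720 in the granule comparison, 1287 and 2096 in oligodendrocytes and 2665 and 12233 in CA1. Its part in the result was not tested. Different clusters held most of a class in these sets: granule nuclei of set 1 were mostly in cluster 5 and those of sets 2 to 4 in cluster 0.

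In granule neurons 64 members had 100 UMIs over both sides, and 55 were at least 2-fold higher in set 1, where 9.73% of 9517 genes were, and 0 were 2-fold lower, where 3.96% of genes were. A member can reach that floor through set 1 alone, so the count over tested members leans to those that were high there. The sizes differed widely among members. Rpl28 was highest at 10.1 (95% interval 7.78 to 13.3), from 4.02, 6.88 and 8.72 CPM in sets 2 to 4 to 64.6 in set 1. Rplp1 followed at 9.39 (95% interval 7.98 to 11.1), and Rpl39, a small protein of the exit tunnel, had 8.69. Rps13 had 1.39 (95% interval 1.07 to 1.79), Rps18 1.53 and Rpl31 1.18 (95% interval 0.753 to 1.80).

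In oligodendrocytes 38 members were tested and all 38 were at least 2-fold higher in set 1, where 8.38% of 5868 genes were, and 0 were 2-fold lower, beside 6.56% of genes. The 41 that missed the floor include Rps12 (0.614), Rpl31 (0.643), Rpl23a (0.900) and Rps15a (1.02), which were near or below 1 on few UMIs. Rpl28 was again highest at 11.4 (95% interval 7.75 to 17.1), with 121, 6.02, 11.6, 13.2, 49.9 and 50.2 CPM in sets 1 to 5 and 7. Rps4x had 8.10 and Rpl18 8.08, and the lowest tested were Rpl5 at 2.47 and Rpl4 at 2.63.

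In CA1 neurons 31 of 54 members tested were at least 2-fold higher in sets 5 and 6 than in sets 2 to 4, where 8.94% of 9830 genes were, and 0 were 2-fold lower, beside 2.97% of genes. Rpl28 led here too, at 5.05 (95% interval 3.62 to 7.11), followed by Rps21 at 4.84. Rps15a was lower in sets 5 and 6 at 0.654 (95% interval 0.423 to 0.981), and Rpl17 (0.792) and Rps18 (0.812) lay below 1. The CA1 and granule comparisons share sets 2 to 4 but no nuclei.

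The level of single members by set shows both patterns. In CA1 neurons Rpl28 stood at 36.0, 3.10, 5.39, 4.75, 19.2 and 24.4 CPM in sets 1 to 6, low in sets 2 to 4 and high in the other 3. Rpl6 stood at 105, 47.7, 49.8, 45.4, 88.0 and 77.7, with the same 3 sets low and a narrower range. Rplp1 stood at 71.2, 10.1, 11.9, 7.60, 20.7 and 24.0, high in set 1. Rps13 stood at 25.2, 11.8, 13.7, 13.5, 12.3 and 11.5, where sets 2 to 6 lay together and set 1 alone was higher.

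**Figure D4:**
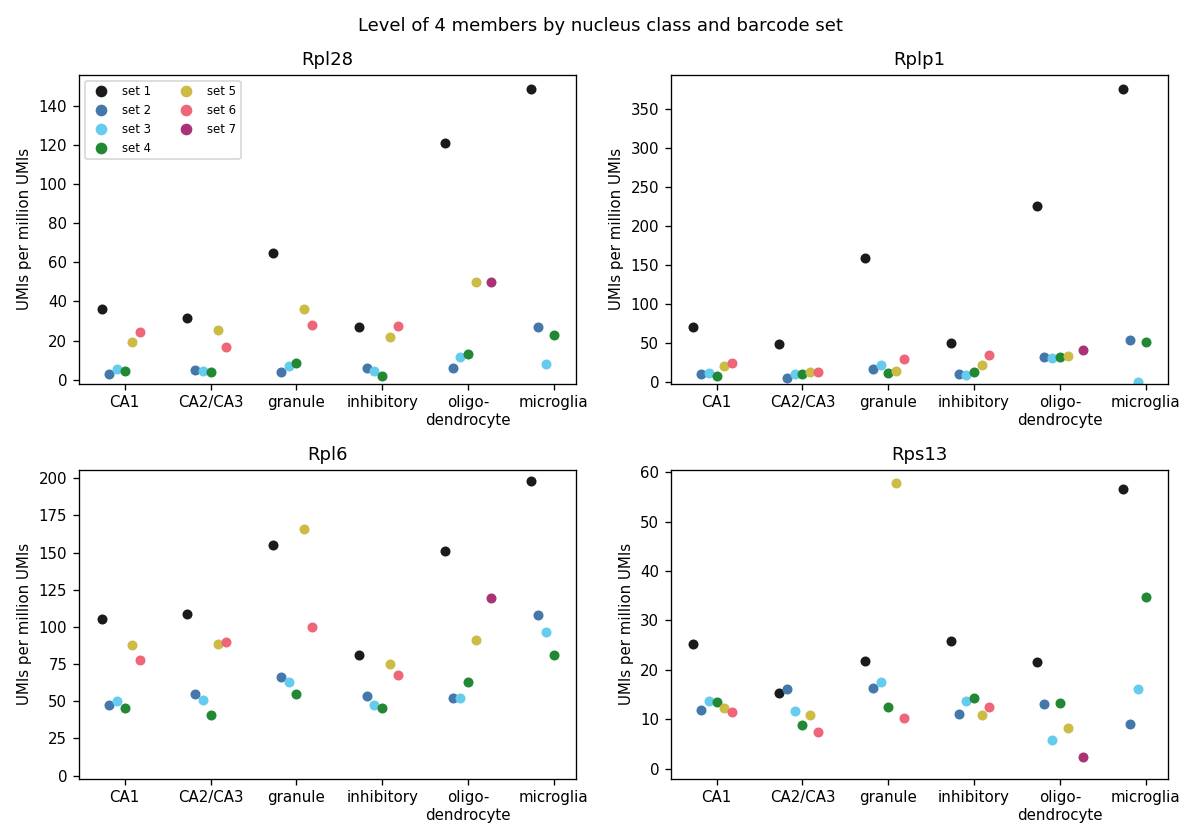
Level of Rpl28, Rplp1, Rpl6 and Rps13 (CPM, each panel on its own scale) in 6 nucleus classes, one point per barcode set with at least 50 nuclei of the class. Set 1 is highest in most classes for Rpl28 and Rplp1, sets 5 and 6 lie above sets 2 to 4 for Rpl28 and Rpl6, and Rps13 in CA1 neurons lies between 11.5 and 13.7 in sets 2 to 6.

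Genomic span ran alongside the difference between sets over all genes. In granule neurons the median ratio of set 1 to sets 2 to 4 was 2.36 for 506 genes of at most 5 kb, 1.60 for 869 of 5 to 10 kb, 1.32 from 10 to 20 kb, 1.12 from 20 to 50 kb, 1.01 from 50 to 100 kb and 0.891 above 100 kb. The members had a median of 4.55. In oligodendrocytes the same medians ran from 2.95 for the shortest genes to 0.795 for the longest, and the members had 5.89. In CA1 neurons they ran from 2.08 to 0.898, and the members had 2.09. The members were thus above the shortest genes in the first 2 comparisons and level with them in the third.

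Among the members themselves span and ratio went together weakly. Spearman's rho between span and ratio was -0.18 over 64 members in granule neurons, -0.20 over 38 in oligodendrocytes and -0.42 over 54 in CA1 neurons, as descriptions of genes that share nuclei and depth. The 22 tested hosts of small nucleolar RNAs had a median ratio of 3.64 in granule neurons and the 42 other members 4.72. In oligodendrocytes these medians were 5.89 for 12 hosts and 6.06 for 26 other members, and in CA1 neurons 2.04 for 17 and 2.14 for 37, so they were close. Between classes rho with span was -0.02 for the neuronal comparison, -0.04 for excitatory against inhibitory neurons, -0.01 for granule against CA1 and -0.11 for microglia against oligodendrocytes.

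**Figure D5:**
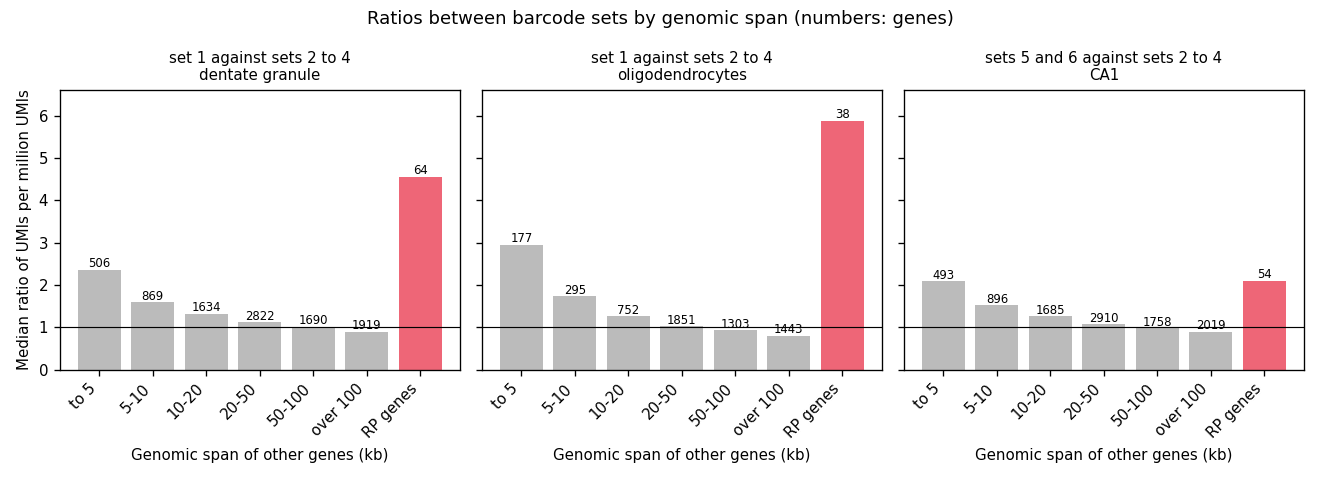
Median ratio of CPM between barcode sets for genes grouped by genomic span (grey bars, kb) and for the ribosomal protein genes (red bar), in dentate granule neurons, oligodendrocytes and CA1 neurons; numbers over bars are genes with at least 100 UMIs and the line marks 1. Medians go down from the shortest to the longest genes in each panel, and the red bar is at 4.55, 5.89 and 2.09.

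Across the 48 combinations of class and barcode set with at least 50 nuclei, each member's level was set against the sum of the other members. Over the 53 members with at least 1000 UMIs, Spearman's rho had a median of 0.809, from 0.137 for Rps13 to 0.926 for Rpl28, and the same measure had a median of 0.0799 over 8975 other genes. Rpl17 (0.293), Rps15a (0.399) and Rps18 (0.405) were also low, and Rpl31, with only 587 UMIs, had 0.0987. In granule neurons the ratios of set 1 to sets 2 to 4 for these genes were 1.39 for Rps13, 2.10 for Rpl17, 1.80 for Rps15a, 1.53 for Rps18 and 1.18 for Rpl31. The combinations share libraries and depth, so these values are descriptions.

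Of genes outside the rule with at least 2000 UMIs, the 10 whose level followed the summed members most closely over the 48 combinations were Fau (0.923), Ndufa4 (0.922), Cox8a (0.922), Ubb (0.922), Pcsk1n (0.921), Atp6v0c (0.906), Cox6c (0.904), Hspa8 (0.902), Arl6ip1 (0.895) and Rpsa (0.888). Fau and Rpsa encode 40S proteins, and Ndufa4, Cox8a and Cox6c are nuclear genes of the respiratory chain. Ubb encodes ubiquitin, Hspa8 a constitutive chaperone, and Atp6v0c a subunit of the vacuolar proton pump.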

How the data were processed

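Single nuclei of 10 samples in 1 group were measured by 3′ droplet RNA sequencing. The authors deposited 1 matrix of unscaled UMI counts, whose header names Cell Ranger 4.0.0. The submitters' processing notes name the same tool and 2 names of the mouse build, GRCm38 and mm10. Counting of intronic reads is not given in the sources used here. No label ties the 7 barcode suffixes to samples, so no comparison was tested and every interval covers counting error only.

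Barcodes with at least 500 UMIs were kept, and doublets called per set with Scrublet in scanpy 1.11.5 (expected rate 0.05) were removed. In sets 2, 5 and 7 fewer than 0.5% were called, and doublets may remain there. Clustering used Leiden (leidenalg 0.10.2, resolution 1, 15 neighbours, 30 principal components) on 2083 features without any member or listed gene. Clusters were named from marker lists by a rule set while the clusters were in view. A class needed at least 3 markers at 0.25 or more of their highest cluster level and in at least 5% of nuclei. A cluster stayed unnamed if at least 3 markers and 0.5 of the list of another class were raised 2-fold. It also stayed unnamed if another class had more markers among the 10 leading genes, or if it was shallow with no own marker among these. Oligodendrocytes and their precursors were not set against each other. Counts were summed per class (numpy 2.4.6, pandas 2.3.3) and divided by the class total, as UMIs per 1000000 (CPM). Ratios have exact conditional Poisson 95% intervals and shares exact Clopper-Pearson 95% intervals (scipy 1.17.1). A gene was tested with 100 UMIs over both sides and called at 2-fold. A set entered with 50 nuclei on each side. The calculation was tested on simulated data with known fold changes. These data followed the counting model that the intervals assume and held no differences between sets, so they check the arithmetic only. Gene positions are those of GENCODE M21, promoter sequences those of RefSeq GRCm38.p6, and a gene is short at 10 kb or less.

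The members, gene lists and marker lists were chosen with earlier results of these data known. Named are, per comparison, the 10 members with the highest and the 10 with the lowest ratio among those with 200 UMIs and one direction in every set, the 10 with most and those with fewest UMIs, the stalk genes, the restricted paralogs with their partners, and the extremes of each list. Members named in the comparisons between barcode sets, and Rpl11 and Rpl14, were chosen after their values were seen. Some members that this rule names are not reported here. The lists cover other ribosomal protein symbols, elongation, initiation, ribosome biogenesis, mTOR signalling, long noncoding RNAs, mitochondrial ribosomal proteins, oxidative phosphorylation and mitochondrially encoded genes. Alternatives covered the filters, doublets, resolution, unnamed clusters, scaling, thinning to 1000 UMIs, weighting of sets and leaving out each set.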

Additional observations from a re-analysis of the deposited data

Results flagged for a closer look

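In 2 of the 8 nucleus classes with values in 4 or more barcode sets, the share of UMIs from the ribosomal protein genes in set 1 stood apart from the other sets by Dixon's test at the 95% level. In oligodendrocytes it was 0.5565% in set 1 and at most 0.244% in the other 5 sets, a gap of 0.693 of the whole range against a critical value of 0.625. In microglia it was 0.7182% in set 1 and at most 0.161% in the other 3 sets, a gap of 0.932 of the range against a critical value of 0.829. Chance alone marks about 1 in 20 such groups if the sets are like draws. Here the sets differ in depth and both flags fall on set 1, so the 2 classes are not independent. Barcode sets are not samples, and whether set 1 holds 1 sample or several is not known from the labels.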

How the results depend on the processing

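No paired analysis was possible because the barcode sets carry no sample labels and the 10 samples form 1 group. Under the other settings below, calls were counted for members only. Those counts have no share of all genes beside them and cannot be read as an excess. The neuronal to non-neuronal ratio, 0.472, was 0.516 with at least 1000 UMIs per nucleus, 0.492 with doublets kept, 0.629 with unnamed clusters placed, 0.555 relative to all genes, 0.601 relative to short genes, 0.532 with nuclei thinned to 1000 UMIs, 0.576 as the median over sets and 0.595 in sets 2 to 4. Per nucleus it turned to 1.89, as did Rpl10 (1.73), Rps27a (1.53), Rps4x (1.52), Rpl23 (1.42), Rpl28 (1.40), Rps16 (1.38), Rplp1 (1.35), Rpl39 (1.27), Rps29 (1.25), Rpl7 (1.16), Rpl18 (1.09), Rps3 (1.07) and Rplp0 (1.002). The count of members at least 2-fold lower, 39, was 10 with unnamed clusters placed, 20 relative to short genes and 0 per nucleus; 34 were then higher, and 3 were higher with no UMI floor. The neuronal share, 0.101%, was 0.114% with unnamed clusters placed, 0.126% thinned, 0.0682% as the median over sets and 0.0651% in sets 2 to 4, and its unscaled form is 7.71 UMIs per nucleus. The non-neuronal share, 0.213%, was 0.196% with at least 1000 UMIs, 0.206% with doublets kept, 0.181% with unnamed clusters placed, 0.236% thinned, 0.111% as the median over sets and 0.109% in sets 2 to 4, and unscaled 4.09 UMIs per nucleus.

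The excitatory to inhibitory ratio, 1.19, was 1.16 with unnamed clusters placed, 1.33 per nucleus, 1.23 relative to all genes, 1.12 thinned, 1.01 as the median over sets and 1.03 in sets 2 to 4, with 2 members called higher when thinned and 2 with no floor. The granule to CA1 ratio, 1.75, and its 20 called members became 1.67 and 11 at resolution 0.5, 1.60 and 8 per nucleus, 1.68 and 12 relative to all genes, 1.64 and 5 thinned, 1.42 and 3 as the median over sets, 1.63 and 8 relative to short genes, and 1.39 and 2 in sets 2 to 4. With no floor 1 member was called lower. The microglia to oligodendrocyte ratio, 1.39, turned to 0.709 with unnamed clusters placed, as did Rps29 (0.790) and Rps9 (0.829), with 0 members called higher and 9 lower; it was 1.14 per nucleus, 1.27 relative to all genes, 1.32 relative to short genes and 1.32 thinned. Its count of members called higher, 3, was 1 per nucleus, 6 as the median over sets and 13 with no floor, and 1 was called lower with at least 1000 UMIs, per nucleus, relative to all or to short genes, as the median over sets and with no floor.

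With each barcode set left out in turn, the neuronal ratio ran from 0.434 to 0.606, its count from 24 to 44, the neuronal share from 0.0760 to 0.116% and the non-neuronal share from 0.125 to 0.253%. The excitatory ratio ran from 0.976 to 1.26, the granule ratio from 1.21 to 1.83 with 1 to 26 members, and the microglial ratio from 1.30 to 1.46 with 2 to 4 members higher and 0 to 1 lower. The lowest neuronal and non-neuronal shares, the ratio of 0.976, the granule values of 1.21 and 1, and a granule to CA1 ratio of 0.936 for Rpl28, which otherwise ran up to 2.31, came without set 1. Within each of sets 2 to 6 the granule to CA1 ratio of Rpl28 was above 1. Thinning left out 725 of the non-neuronal and 27 of the neuronal nuclei as too shallow. Values of named members kept their direction in 463 of 494 cases for neurons, 214 of 228 for excitatory neurons, 488 of 494 for granule neurons and 208 of 228 for microglia. Many of these members were named because they had one direction in every set. The settings by barcode set could therefore hardly turn them, and these counts are no separate check. The settings for short genes and for sets 2 to 4, and the comparisons between sets, were chosen after seeing the data. The cause of these changes was not tested. With 1 sample, no value has an error beyond counting, and in the shallow microglia and oligodendrocytes only 51 members reached 100 UMIs.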

Other observations

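Other genes that translate or power the cell moved between barcode sets to differing degrees. In granule neurons 50 of 73 nuclear genes of oxidative phosphorylation tested were at least 2-fold higher in set 1 than in sets 2 to 4 and 1 was lower, with Ndufb11 highest at 7.80 and Atp5o lowest at 0.331. Of 67 mitochondrial ribosomal protein genes 26 were higher, of 11 elongation factors and related genes 5 (Tpt1 highest at 4.99), and of 33 initiation factors 5 (Eif1 highest at 4.43). Of 38 biogenesis genes 4 were higher, with Nop10 at 5.23, and 1 lower, and of 18 genes of the mTOR list 0 were called, beside 9.73% of all genes. The lists thus ranked as their share called, from most to least, after the ribosomal protein genes: oxidative phosphorylation, elongation, mitochondrial ribosomal proteins, initiation, biogenesis and mTOR signalling. In oligodendrocytes 31 of 44 oxidative phosphorylation genes were higher in set 1, as were all 3 mitochondrially encoded genes tested, with mt-Co3 at 5.99, beside 8.38% of all genes.

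Nuclei in small or unnamed classes also carried the members. Cajal-Retzius neurons, 109 nuclei marked by Reln and Trp73, had a share of 0.280% over all sets (95% interval 0.258 to 0.304%), and 0.735% in the 14 of them in set 1. They were not part of the neuronal side above, and their share lay above the 0.213% of the non-neuronal nuclei. The 1956 nuclei of unnamed clusters had 0.182%, and 898 of them were in set 1, where their share was 0.268%. Oligodendrocyte precursors had 0.0717%, 0.0970% and 0.0727% in sets 2 to 4, from 44, 36 and 26 nuclei. These shares lay on both sides of those of granule neurons in the same sets.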
